A study of Mus musculus with 4 samples.

Results

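The endocytic apparatus of the proximal tubule was followed through 10 gene names: the receptor genes Lrp2, Cubn and Amn, the chaperone gene Lrpap1, the adaptor gene Dab2, the endosome genes Clcn5 and Ocrl, and the recycling and apical traffic genes Ehd1, Rab11a and Tmem27. Members were the rows of the deposited expression table that bear these names, and 9 of the 10 were found among 32151 genes. Tmem27 is not a row name there; RefSeq lists it as a synonym of Cltrn, whose row was read beside the members and is not counted among them. RNA-seq of whole mouse kidney gave 4 libraries, of which 2 carry the label ADPKD (autosomal dominant polycystic kidney disease) and 2 the label wild type (WT). The ADPKD genotype is given as Pkd1fl/fl; Cre/Esr1+, that is, a floxed Pkd1 gene with a Cre recombinase that tamoxifen switches on. Tamoxifen at 10 mg/kg on postnatal day 10 is entered for both groups, the WT genotype being given as wildtype. The promoter behind Cre, the sex of the mice and their age at collection are not given in the sources used here. Nothing in the labels ties the libraries to separate animals, and p-values measure only the spread between them.

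Megalin (Lrp2) and cubilin (Cubn) are giant receptors of the apical membrane of proximal tubule cells, where they bind proteins, vitamins and hormones that pass the glomerular filter. Cubilin has no membrane anchor of its own and reaches the surface with amnionless (Amn), while the adaptor Dab2 links megalin to clathrin-coated pits. Cargo is released in acidified endosomes and the receptors return to the surface through recycling endosomes, and loss of this uptake causes low-molecular-weight proteinuria.

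The sequences before the starts of the receptor genes Lrp2 and Cubn, which fell in ADPKD, are shown because they differ in make-up. They come from RefSeq on GRCm38.p6 and run 5′ to 3′ along the gene. Each stops before the RefSeq start or, if this comes first, where the deposited annotation begins an exon of the gene. The Lrp2 sequence stops at such an exon. The Cubn sequence stops at the base before the RefSeq start. The deposited exons of Cubn begin further along, at 13491813, so this RefSeq start is not that of the counted gene. Capitals mark GGGCGG, the GC box bound by SP1, which was searched on both strands.
Lrp2 (chr2:69586066-69586279, minus strand): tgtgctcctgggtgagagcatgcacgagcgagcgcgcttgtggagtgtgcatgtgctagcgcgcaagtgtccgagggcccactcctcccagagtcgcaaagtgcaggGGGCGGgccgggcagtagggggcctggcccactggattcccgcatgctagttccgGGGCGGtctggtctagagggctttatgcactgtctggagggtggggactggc
Cubn (chr2:13491877-13492126, minus strand): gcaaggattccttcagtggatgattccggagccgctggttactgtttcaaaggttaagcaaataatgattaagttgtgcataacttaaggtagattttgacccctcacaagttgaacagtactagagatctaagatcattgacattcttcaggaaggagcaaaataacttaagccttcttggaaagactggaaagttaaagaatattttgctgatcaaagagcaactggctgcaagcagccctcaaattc

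Over the 250 bases before the RefSeq start, the Lrp2 window had a GC content of 66.4% with 18 CG dinucleotides, and GC boxes began at -143 and -88 from that start. The Cubn window had a GC content of 39.6% and no GC box. GGGCGG was found in 32.7% of 32851 windows of this length and in 6 of 12 windows of the members and Cltrn; Ehd1 has no entry. A match of letters is a description, not a site of binding.

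Values are FPKM, which divide a gene's reads by its exon length in kilobases and by the total of reads assigned in that library, so that levels of different genes can be compared per length; pairs of values are in the order of replicates 1 and 2. The libraries held between 18001308 and 19955120 assigned reads, of which the 9 members took 58693 and 57052 in WT and 30615 and 28785 in ADPKD. All 9 had a mean of at least 0.5 FPKM and were tested by limma on log2(FPKM + 1), with a call at a Benjamini-Hochberg adjusted p below 0.05 over 17001 genes. ADPKD replicate 2 stood apart from the other libraries in its sex-linked genes: Xist, which silences an X chromosome, was at 29.6 FPKM there and at most 0.0217 FPKM elsewhere, and the Y-linked gene Ddx3y at 0.0482 FPKM there and at least 8.46 FPKM elsewhere. By these genes that library reads as female and the others as male, so sex was not balanced between the groups. None of 14 proximal tubule markers was listed at 0 in all libraries. Pkd1 was at 1.97 and 2.12 FPKM in WT against 2.48 and 2.08 in ADPKD, summed over all its exons, so that loss of a few exons would not show.

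Kidneys with ADPKD held less mRNA of megalin, cubilin and the receptor chaperone than WT kidneys, while the adaptor, endosome and recycling members did not pass the test in either direction. Of the 9 members 3 fell, namely Lrp2, Cubn and Lrpap1, and 0 rose (0 at an unadjusted p under 0.05, 0 by voom), where 4.78% of all genes tested fell and 9.43% rose. The members had a median log2 fold change of -0.0375, against 0.18 over all genes tested. That median is the value of a single gene, Dab2. In other fits it could be another gene's, as with Ehd1 without ADPKD replicate 2. The members' median was -0.13 and -0.30 without ADPKD replicate 1 or 2, and -0.0474 and -0.27 without WT replicate 1 or 2. In those fits the medians of all genes were 0.10, 0.25, 0.22 and 0.17. Under median-of-ratios scaling the members' median was -0.26, against 0.00604 over all genes. Under quantile normalization it was -0.0687 against -0.0125, and with a filter at a mean of 5 FPKM -0.49 against 0.17. Both ADPKD libraries lay below both WT libraries for 4 members, Amn being the fourth, and above them for 2, Ocrl and Rab11a; over all genes the groups were apart in these directions for 21% and 43.6%. Leaving out a library removed most calls across the genome: 3.3% of genes were called without ADPKD replicate 1, 0 without ADPKD replicate 2, and 3.37% or 1.55% when WT replicate 1 or 2 was absent. With no filter on low values 0.00311% were called. In bulk tissue, fewer cells of a type and less RNA per cell cannot be told apart.

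**Figure D1:**
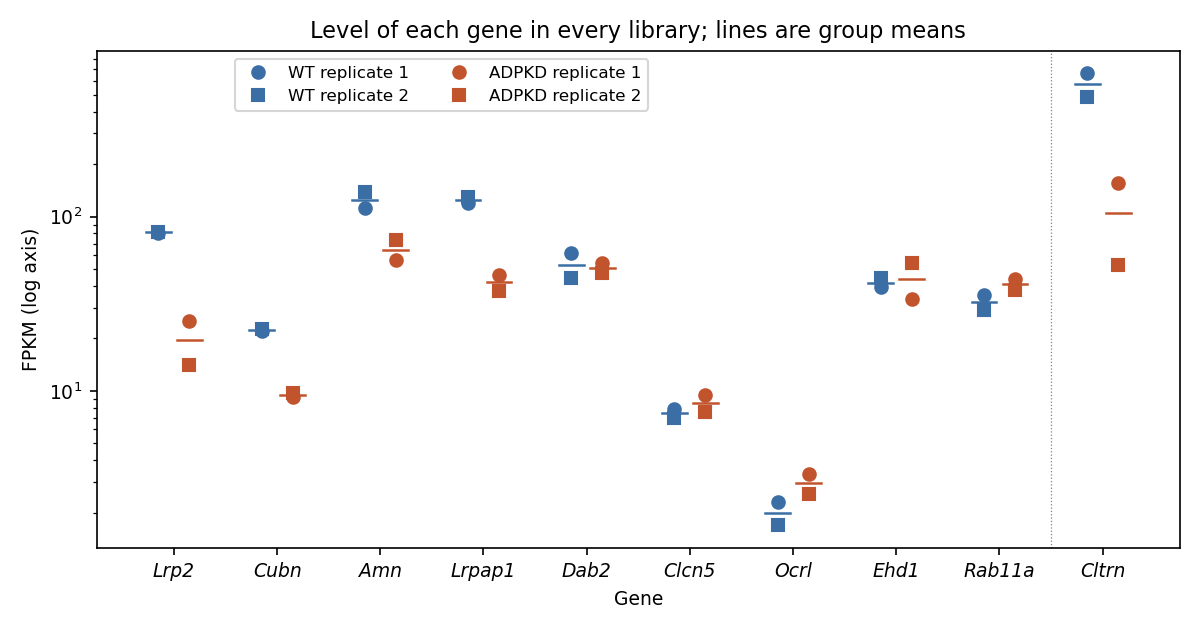
FPKM on a log axis for each gene in each of the 4 libraries (circles, replicate 1; squares, replicate 2), with a line at each group mean; Cltrn, right of the dotted line, is not counted among the 9 members. WT and ADPKD stand apart for Lrp2 (81.0 and 82.1 against 25.2 and 14.03 FPKM), Cubn, Amn and Lrpap1, and overlap for Dab2, Clcn5 and Ehd1.

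Lrp2 (chromosome 2, 69424340 to 69586065, GRCm38) encodes megalin, the LDL receptor family member that carries filtered protein into the cell. Its level was 81.0 and 82.1 FPKM in the WT libraries and 25.2 and 14.03 FPKM in the ADPKD libraries. The WT libraries were nearly equal, and both ADPKD libraries lay far below them, the lower of these being the library with Xist. The mean was 81.5 ± 0.748 FPKM in WT and 19.6 ± 7.91 FPKM in ADPKD (SD, n = 2), WT being 4.16 times as high. The log2 fold change was -2.06 (SE 0.30, 95% interval -2.85 to -1.27, limma adjusted p = 0.0281), or -2.24 relative to the median of all genes. Among the 17001 genes ordered by mean FPKM, Lrp2 took place 808 in WT and 3287 in ADPKD. Without ADPKD replicate 1 the gene was still called (-2.46, limma adjusted p = 0.0421). It was not called without ADPKD replicate 2 (-1.65, adjusted p = 0.0721), without WT replicate 1 (0.0654) or WT replicate 2 (0.0790), nor with no filter (0.0808).

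Cubn (chromosome 2, 13276338 to 13491813) encodes cubilin, the receptor of intrinsic factor with vitamin B12 and a partner of megalin in the uptake of albumin. The WT libraries held 22.0 and 22.6 FPKM of it, the ADPKD libraries 9.23 and 9.74 FPKM. The libraries of each group were close to each other and the groups were clearly apart, with WT 2.35 times as high as ADPKD. Its log2 fold change was -1.15 (SE 0.14, 95% interval -1.52 to -0.79, limma adjusted p = 0.0228). Leaving out any of the 4 libraries ended the call, with an adjusted p of 0.0673 without ADPKD replicate 1 (-1.12), 0.0847 without ADPKD replicate 2 (-1.19), and of 0.0764 (-1.17) or 0.0938 (-1.14) when WT replicate 1 or 2 was absent. With no filter the limma adjusted p was 0.0667. Exons of another gene, Gm13270, cover 2.46% of the exon length of Cubn.

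Amn (chromosome 12, 111271095 to 111276426) encodes amnionless, the membrane anchor that cubilin needs to reach the apical surface. The WT libraries held 111 and 138 FPKM, the ADPKD libraries 56.0 and 73.0 FPKM, and the groups did not overlap. The difference missed the threshold (log2 fold change -0.94, SE 0.21, 95% interval -1.50 to -0.38, limma adjusted p = 0.0542). It passed with a filter at a mean of 5 FPKM (adjusted p = 0.0484) and with voom on recovered reads (0.0359). Amn was the highest of the 3 receptor genes per length, at 5.05 and 6.09 times the level of Cubn in the WT libraries and 6.07 and 7.49 times in the ADPKD libraries, ranges that overlap. The ratio of Lrp2 to Cubn was 3.68 and 3.63 in WT against 2.73 and 1.44 in ADPKD, lower in both ADPKD libraries. With 2 libraries a group the smallest two-sided p of an exact permutation test is 0.3333, and these ratios are given as a description.

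Lrpap1 (chromosome 5, 35091501 to 35105766) encodes the receptor-associated protein, a chaperone that keeps megalin and other LDL receptor family members from binding ligands in the endoplasmic reticulum. The WT libraries held 119 and 130.1 FPKM, the ADPKD libraries 46.4 and 37.6 FPKM. Both ADPKD libraries lay well below both WT libraries, with WT 2.97 times as high. The log2 fold change was -1.55 (SE 0.17, 95% interval -2.01 to -1.09, limma adjusted p = 0.0218). Without WT replicate 1 the gene was still called (-1.62, limma adjusted p = 0.0480). It was not called without WT replicate 2 (limma adjusted p = 0.0661), without ADPKD replicate 1 (0.0542) or ADPKD replicate 2 (0.0829), nor with no filter (0.0667). The level of Lrpap1 was 1.47 and 1.59 times that of Lrp2 in the WT libraries and 1.84 and 2.68 times in the ADPKD libraries.

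Dab2 (chromosome 15, 6299788 to 6440712) encodes the clathrin adaptor that binds the cytoplasmic tail of megalin, and macrophages express it too. The WT libraries held 61.4 and 44.2 FPKM and the ADPKD libraries 54.4 and 47.4 FPKM, both ADPKD values lying between the WT values. The log2 fold change was -0.0375 (SE 0.21, 95% interval -0.60 to 0.53, limma adjusted p = 0.919), an interval that leaves room for a change of either sign. The sign turned without ADPKD replicate 2 (0.0590) and without WT replicate 1 (0.19). Macrophage markers were higher in the ADPKD libraries: 7 of 10 rose, and their summed level was 55.3 and 96.3 FPKM in WT against 553 and 1317 FPKM in ADPKD, with none listed at 0 in all libraries. Under median-of-ratios scaling 1 of the 10 was called, under quantile normalization or with a robust prior 5, and without a library 6 (ADPKD replicate 1), 0 (ADPKD replicate 2), 1 (WT replicate 1) or 1 (WT replicate 2). Their part in the level of Dab2 was not tested.

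**Figure D2:**
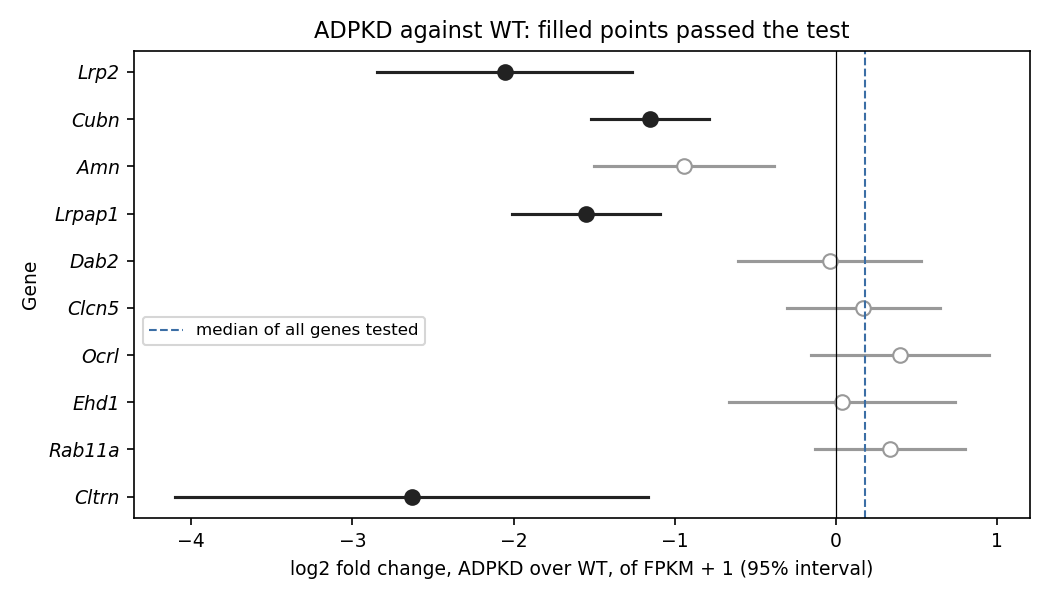
Log2 fold change of ADPKD over WT on the log2(FPKM + 1) scale with its 95% interval from limma, filled where the adjusted p was below 0.05; the dashed line is the median of all genes tested, 0.18. Lrp2, Cubn, Lrpap1 and Cltrn lie left of 0 with filled points, Amn lies left of 0 unfilled, and the intervals of the other 5 genes include 0.

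The endosome members encode proteins whose loss in humans impairs the same uptake. Clcn5 (chromosome X, 7153810 to 7319358), the chloride and proton exchanger of endosomes that is mutated in Dent disease, was at 7.90 and 6.94 FPKM in WT against 9.45 and 7.57 FPKM in ADPKD. The groups overlapped, and the log2 fold change of 0.17 (SE 0.18, 95% interval -0.30 to 0.64, limma adjusted p = 0.545) turned to -0.0687 under quantile normalization and to -0.0359 under median-of-ratios scaling. Ocrl (chromosome X, 47912387 to 47965868), the inositol lipid phosphatase gene mutated in Lowe syndrome, was at 2.30 and 1.69 FPKM in WT against 3.33 and 2.56 FPKM in ADPKD. Both ADPKD libraries were above both WT libraries, by a small margin at the lowest level of the 9 members, 289 to 587 reads per library. The log2 fold change of 0.40 (SE 0.21, 95% interval -0.16 to 0.95, limma adjusted p = 0.252) was not called. Inpp5b, the paralog of Ocrl, named here after its values were seen, was at 18.0 and 19.9 FPKM in WT against 12.4 and 12.1 FPKM in ADPKD (log2 fold change -0.59, limma adjusted p = 0.0638). Inpp5b was called lower with a filter at a mean of 5 FPKM, under quantile normalization and with voom.

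The recycling members were not called either. Ehd1 (chromosome 19, 6276725 to 6300096), whose product shapes membrane tubules of the recycling endosome, was at 39.2 and 44.3 FPKM in WT against 33.8 and 54.3 FPKM in ADPKD. The ADPKD libraries lay on either side of the WT libraries. The log2 fold change was 0.0386 (SE 0.27, 95% interval -0.66 to 0.74, limma adjusted p = 0.933), and it was -0.0407 under quantile normalization and -0.19 under median-of-ratios scaling. Without ADPKD replicate 1 it was 0.37, and without ADPKD replicate 2 it was -0.30. Rab11a (chromosome 9, 64715299 to 64737758), the small GTPase of recycling endosomes, was at 35.4 and 29.2 FPKM in WT against 44.0 and 37.8 FPKM in ADPKD. The groups did not overlap but lay close together, with a log2 fold change of 0.34 (SE 0.18, 95% interval -0.13 to 0.80, limma adjusted p = 0.251).

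Cltrn (chromosome X, 164088830 to 164118860), the gene listed elsewhere as Tmem27, encodes collectrin, a membrane protein that brings amino acid transporters to the brush border. Its level was 664 and 485 FPKM in the WT libraries and 156 and 52.6 FPKM in the ADPKD libraries. Both ADPKD libraries were far below both WT libraries, and ADPKD replicate 1 was 2.96 times as high as ADPKD replicate 2, the library with Xist. Its log2 fold change was -2.63 (SE 0.55, 95% interval -4.10 to -1.16, limma adjusted p = 0.0480). In order of mean FPKM, Cltrn took place 62 in WT and 581 in ADPKD. Without ADPKD replicate 1 it was still called (-3.41, limma adjusted p = 0.0476). It was not called without ADPKD replicate 2 (-1.86, adjusted p = 0.0963), without WT replicate 1 (0.119) or WT replicate 2 (0.105), with no filter (0.126), under quantile normalization (0.0775) or with a robust prior (0.0631). Clcn5, Ocrl and Cltrn all lie on the X chromosome, and all were lower in the library with Xist than in the other ADPKD library, as were 4 of the 7 autosomal genes, namely Lrp2, Lrpap1, Dab2 and Rab11a; the part of sex in these values was not tested.

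Proximal tubule markers, genes of the cell type in which megalin and cubilin act, were lower in the same libraries: 9 of 14 fell and 0 rose. Under quantile normalization 4 of the 14 fell, and 1 fell without ADPKD replicate 1, 0 without ADPKD replicate 2 and 1 with WT replicate 1 or 2 left out in turn. Their summed level was 5777 and 5328 FPKM in WT against 1751 and 2342 FPKM in ADPKD, and their geometric mean was 204 and 170 FPKM in WT against 63.9 and 43.3 FPKM in ADPKD. Relative to that geometric mean, Lrp2 was at 0.397 and 0.482 in the WT libraries and at 0.395 and 0.324 in the ADPKD libraries, the groups being apart by a narrow margin. Lrpap1 was at 0.585 and 0.764 in WT against 0.727 and 0.867 in ADPKD, which overlap. Cubn was at 0.108 and 0.133 against 0.144 and 0.225, and Amn at 0.546 and 0.808 against 0.877 and 1.68; for both the ADPKD ratios were the higher. The ratio of Dab2 was 0.301 and 0.260 in WT against 0.851 and 1.09 in ADPKD, and that of Rab11a 0.174 and 0.171 against 0.688 and 0.873. Cltrn was, besides Lrp2, the only one of these 10 genes with lower ratios in both ADPKD libraries, at 3.26 and 2.85 in WT against 2.44 and 1.21 in ADPKD. Of 6 injured tubule markers 6 rose, with a summed level of 15.1 and 12.3 FPKM in WT against 175 and 207 FPKM in ADPKD; 5 rose without ADPKD replicate 1, 0 without ADPKD replicate 2, and 4 or 3 when WT replicate 1 or 2 was absent. Outside the proximal tubule, 2 of 5 thick ascending limb, 2 of 4 distal convoluted tubule, 1 of 5 intercalated cell and 2 of 6 endothelium markers fell. These counts were 0 or 1 when any 1 library was left out. Of 7 podocyte and 5 tested principal cell markers 0 passed the test by limma or voom, with 1 and 2 higher and 2 and 1 lower at an unadjusted p under 0.05. The summed level was 93.8 and 77.8 FPKM in WT against 40.0 and 83.9 FPKM in ADPKD for podocyte markers, and 748 and 586 against 605 and 619 FPKM for the 6 principal cell markers listed. The part of these cell types in the members' levels was not tested. The ratios to the geometric mean do not depend on the scaling between libraries, but they do depend on the reference chosen. Since that geometric mean was lower in ADPKD, a gene of unchanged FPKM has a higher ratio there. Dab2, with a log2 fold change of -0.0375, is such a gene, so its higher ratio is not a rise of its own level. The 14 proximal tubule markers had log2 fold changes from -4.43 to 0.24. From ADPKD replicate 1 to replicate 2 their sum rose while their geometric mean fell, and ratios to the sum were not taken. Which cells carried each transcript was not measured.

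**Figure D3:**
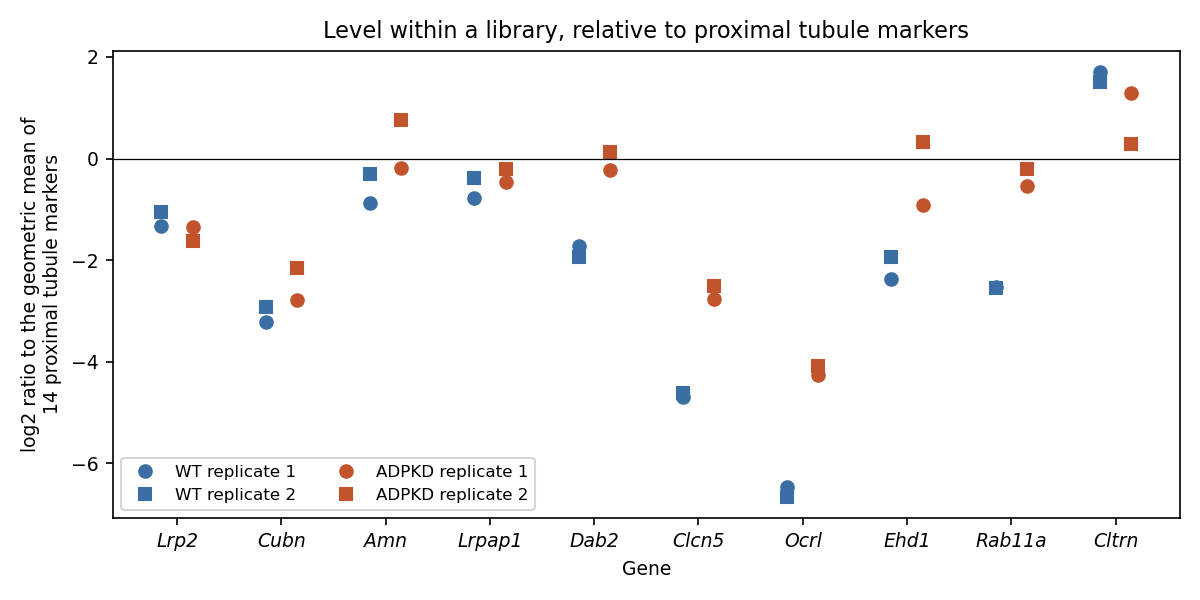
Log2 ratio of each gene to the geometric mean of 14 proximal tubule markers within the same library (circles, replicate 1; squares, replicate 2). Lrpap1 overlaps between WT and ADPKD, Lrp2 lies lower in ADPKD by a narrow margin, and Cltrn lies lower. Cubn, Amn, Dab2, Clcn5, Ocrl, Ehd1 and Rab11a lie higher in ADPKD. The geometric mean itself was 204 and 170 FPKM in WT against 63.9 and 43.3 FPKM in ADPKD. A gene of unchanged level therefore lies higher in ADPKD.

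Other genes of the pathway were read in 9 lists with 115 tested genes. Of these 12 rose and 10 fell, where 9.43% of all genes tested rose and 4.78% fell. Under quantile normalization 7 rose and 12 fell, where 5.88% of all genes rose and 6.48% fell. Under median-of-ratios scaling 3 rose and 12 fell, where 4.36% of all genes rose and 5.17% fell. Of 16 genes of the clathrin coat and its adaptors 4 rose and 0 fell, with a median log2 fold change of 0.43. Hip1r, which links the coat to actin, rose from 10.02 and 9.53 FPKM to 21.1 and 23.5 FPKM (log2 fold change 1.11, SE 0.15, limma adjusted p = 0.0248); other genes' exons cover 12.5% of it. Ap2b1, a subunit of the AP-2 adaptor complex, rose from 14.4 and 13.3 to 32.8 and 28.4 FPKM (1.09, SE 0.15, limma adjusted p = 0.0271). Eps15, a scaffold gene of the coated pit, was among the others. Under quantile normalization 2 of these 16 genes rose, and under median-of-ratios scaling 1, Ap2b1; leaving out any 1 library left 0 calls among them.

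Of 17 recycling genes 4 rose, namely Arf6, Ehd2, Ehd4 and Rab11fip1, and 0 fell, with a median of 0.27. Arf6, a small GTPase of the plasma membrane and endosomes, rose from 17.9 and 21.7 to 42.3 and 54.7 FPKM (log2 fold change 1.25, SE 0.20, limma adjusted p = 0.0317); another gene's exons cover 14.3% of it. Ehd2, a relative of Ehd1 found at caveolae, rose from 7.74 and 6.91 to 15.4 and 18.7 FPKM (1.11, SE 0.17, limma adjusted p = 0.0298). Under median-of-ratios scaling 0 of the 17 were called, under quantile normalization 2, and without any 1 library 0. Of 15 early endosome genes 0 passed the test by limma, with a median of 0.0677; at an unadjusted p under 0.05, 3 were higher and 2 lower. The smallest p of that list were those of the sorting nexin genes Snx5 (20.1 and 19.6 FPKM in WT against 35.2 and 30.4 in ADPKD, limma adjusted p = 0.0510) and Snx2 (23.4 and 21.9 against 34.3 and 34.6 FPKM, limma adjusted p = 0.0597). With voom on recovered reads, which called 12.3% of all genes higher and 5.56% lower, 3 of the 15 rose and 1 fell.

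Of 21 genes of endosome acidification 2 rose and 1 fell, with a median of -0.12, where 9.43% of all genes tested rose and 4.78% fell. At an unadjusted p under 0.05, 2 were higher and 4 lower. Both ADPKD libraries lay below both WT libraries for 11 of the 21 and above them for 4. Over all genes the groups were apart in these directions for 21% and 43.6%. Slc9a3, which encodes the sodium and proton exchanger NHE3 of the brush border and early endosomes, fell from 21.8 and 26.1 to 7.46 and 7.21 FPKM (log2 fold change -1.58, SE 0.16, limma adjusted p = 0.0201). It was still called without WT replicate 1 (limma adjusted p = 0.0415) and not without WT replicate 2 (0.0689), ADPKD replicate 1 (0.0596) or ADPKD replicate 2 (0.0818). Ostm1, the partner subunit of a lysosomal chloride exchanger, rose from 2.58 and 2.50 to 5.31 and 5.79 FPKM (0.89, SE 0.16, limma adjusted p = 0.0353), but was not called under median-of-ratios scaling (adjusted p = 0.0697), under quantile normalization (0.0672) or with no filter (0.0861). Leaving out a library gave Ostm1 a limma adjusted p of 0.0822 (ADPKD replicate 1), 0.112 (ADPKD replicate 2), 0.154 (WT replicate 1) or 0.188 (WT replicate 2). The other gene that rose was the proton pump subunit gene Atp6v0a1. Under median-of-ratios scaling 0 rose and 3 fell, among them the proton pump subunit genes Atp6v1d and Atp6v1e1.

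Among 11 tested LDL receptor family genes other than Lrp2, 0 passed the test by limma, with a median of 0.32; at an unadjusted p under 0.05, 3 were higher and 1 lower, and voom called 1 higher and 0 lower. Lrp1, a broad receptor that macrophages and fibroblasts express, was at 3.30 and 3.85 FPKM in WT against 7.41 and 13.5 FPKM in ADPKD (log2 fold change 1.27, SE 0.30, limma adjusted p = 0.0615; 0.0338 with voom). Lrp3 was at 4.35 and 4.91 FPKM in WT against 2.77 and 2.68 FPKM in ADPKD (-0.59, limma adjusted p = 0.0781; 0.0393 under quantile normalization). Of 8 fibroblast markers 6 rose, with a summed level of 83.8 and 78.9 FPKM in WT against 421 and 325 FPKM in ADPKD; 2 rose without ADPKD replicate 1, 0 without ADPKD replicate 2 and 3 with WT replicate 1 or 2 left out in turn. Their part and that of macrophage markers in the level of Lrp1 was not tested.

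Of 6 genes related to collectrin 3 fell and 0 rose, with a median of -0.72. Slc6a20b, a transporter gene of the SLC6 family, fell from 26.2 and 29.2 to 8.20 and 5.11 FPKM (log2 fold change -1.94, SE 0.24, limma adjusted p = 0.0243); another gene's exons cover 21.1% of it. Slc1a1, a glutamate transporter gene, fell from 21.5 and 19.6 to 9.56 and 8.42 FPKM (-1.11, SE 0.15, limma adjusted p = 0.0263), and 31.9% of it lies under exons of other genes. Slc6a19, the main neutral amino acid transporter gene that depends on collectrin in mice, named after its values were seen, was at 39.7 and 23.3 FPKM in WT against 33.7 and 14.98 FPKM in ADPKD (limma adjusted p = 0.569). Of 10 brush border scaffold genes 5 fell and 0 rose, with a median of -0.73. At an unadjusted p under 0.05, 1 was higher and 6 lower. Ezr was called higher with a filter at a mean of 5 FPKM, with 0.1 in place of 1 added to each FPKM, and under quantile normalization. The robust prior and voom called it higher too. Pdzk1, a PDZ scaffold gene of the microvilli, fell from 113 and 134 to 39.3 and 31.3 FPKM (-1.78, SE 0.19, limma adjusted p = 0.0206), and 41.7% of it lies under exons of other genes. Espn, an actin bundling gene, fell from 5.31 and 5.43 to 1.69 and 1.76 FPKM (-1.23, SE 0.16, limma adjusted p = 0.0243). Of these 16 genes 1, Slc6a20b, was called without ADPKD replicate 1, 1, Pdzk1, without WT replicate 1, and 0 without ADPKD replicate 2 or WT replicate 2.

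**Figure D4:**
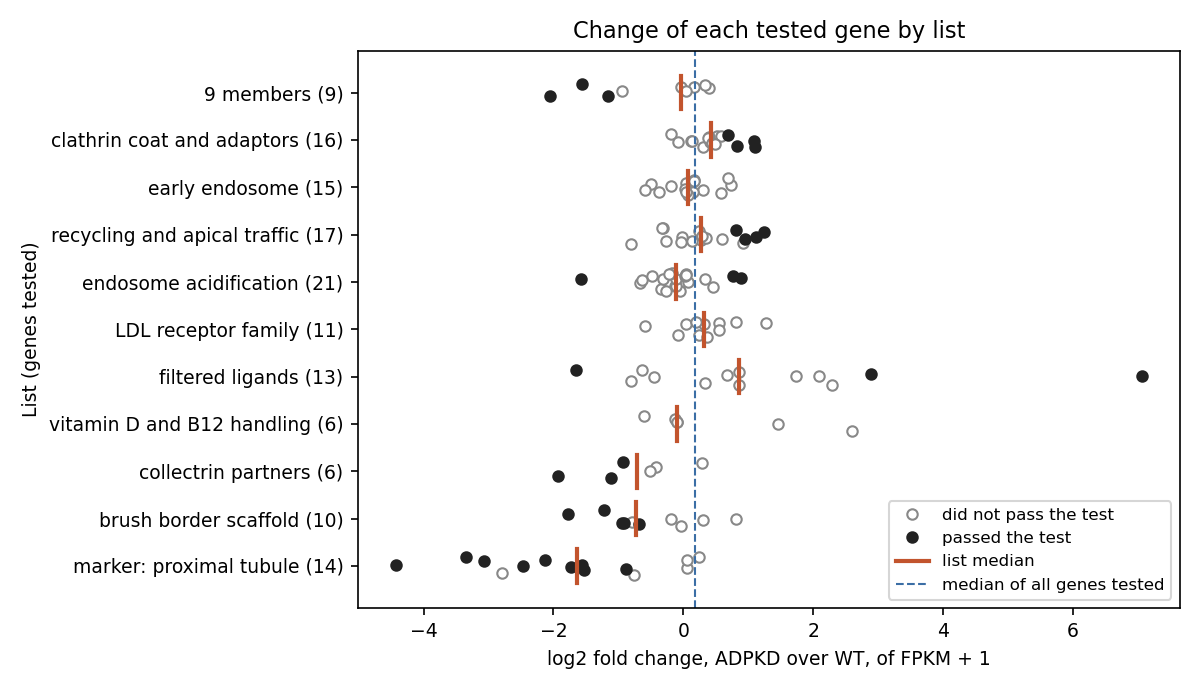
Log2 fold change of each tested gene by list (filled, adjusted p below 0.05; orange bar, list median; dashed line, median of all genes tested, 0.18; heights within a list are arbitrary). The medians of the collectrin partner, brush border and proximal tubule lists, -0.72, -0.73 and -1.64, lie left of the dashed line and that of the clathrin list, 0.43, lies right of it.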

How the data were processed

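FPKM per gene in 4 whole-kidney libraries (2 ADPKD, 2 WT) were analysed as deposited by the authors. RNA was isolated with TRIzol and selected with oligo dT, per the labels' protocols. Bowtie2, DESeq2 and the mm10 build are named in the submitters' processing notes without roles. Per the file headers, featureCounts 1.6.0 counted reads in exons per gene name (Ensembl GRCm38 release 98), with reads of several alignments included and no strand option, so overlapping genes can share reads. Positions and exon lengths come from that deposited table; its 16 other per-sample columns were not used, since their names do not match the 4 samples. Rows with date-like names (25 of 32176) were left out.

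FPKM times exon length gave whole reads for 100% of values (tolerance 0.01 reads). A value of 0 allows up to 3 reads, 0.150 to 0.167 FPKM at 1 kb, counting error only. Genes with a mean of at least 0.5 FPKM were fitted as log2(FPKM + 1), a scale that understates changes of low genes, by limma 3.58.1 (R 4.3.3) with a trend (residual degrees of freedom 2, prior 2.55), and checked on simulated data. Members and lists were chosen with earlier results of these data known. Named were all members, the 2 genes with the smallest adjusted p of each pathway list and genes said to be chosen otherwise or counted among 5 or fewer. The 12 alternatives changed the filter (none or a mean of 5 FPKM), the value added (0.1) and the scaling (quantile normalization or median-of-ratios). The others were a replicate block, a robust prior, voom on recovered reads, and each of the 4 libraries left out in turn. The closing section gives ranges over them. Some genes counted in the lists are not reported here by name.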

Additional observations from a re-analysis of the deposited data

How the results depend on the processing

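Over the 12 alternatives the log2 fold change ranged from -2.46 to -1.65 for Lrp2, -1.37 to -1.12 for Cubn, -1.78 to -1.40 for Lrpap1, -1.17 to -0.75 for Amn and -3.41 to -1.86 for Cltrn, and no sign turned among these 5 genes. Of the 9 members 0 rose under any of them. The number that fell was 0 with no filter, where 1 of 32151 genes was called (7251 at an unadjusted p under 0.05), and ranged from 0 to 1 when leaving out a replicate; without ADPKD replicate 2 limma called 0 of 16978 genes (5039 at an unadjusted p under 0.05). A fit without a replicate assumes that the lone library of a group varies like the other group. In the 9 lists 12 of 115 tested genes rose and 10 fell, where 9.43% of all genes tested rose and 4.78% fell. The number that rose was 1 with no filter, 3 under median-of-ratios scaling, 7 under quantile normalization and 20 with voom, and the number that fell was 0 with no filter. Leaving out a replicate gave 0 to 4 that rose and 0 to 3 that fell.

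Signs turned for 3 members that were not called. Dab2 ranged from -0.27 to 0.19 when leaving out a replicate, with 0.0590 without ADPKD replicate 2. Clcn5 was at -0.0359 under median-of-ratios scaling and -0.0687 under quantile normalization. Ehd1 was at -0.19 and -0.0407 under these scalings and ranged from -0.30 to 0.37 when leaving out a replicate, with -0.0474 without WT replicate 1. The cause was not tested. Same-numbered libraries share only a number; their deviations correlated at 0.19 across genes. With the replicate number as a block 4 members fell, Amn among them (log2 fold change -0.94, limma adjusted p = 0.0466), and 1220 genes rose and 625 fell in place of 1604 and 813.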

Other observations

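Genes for proteins that megalin and cubilin take up were read as a list of 15 by their mRNA in kidney. The amount of each protein that was filtered was not measured. Of 13 tested genes 2 rose and 1 fell, where 9.43% of all genes tested rose and 4.78% fell. The list had a median log2 fold change of 0.86. Without ADPKD replicate 2 the median was 0.16, below the median of all genes in that fit, 0.25, and 0 were called; without ADPKD replicate 1 it was 1.22, with 2 higher and 0 lower. It was 0.80 without WT replicate 1 (4 higher, 1 lower) and 0.65 without WT replicate 2 (1 higher, 0 lower). Lcn2, which encodes the iron carrier lipocalin 2, a megalin ligand and a marker of tubule injury, rose from 1.87 and 1.82 FPKM to 354 and 408 FPKM (limma adjusted p = 0.00457). Clu, the clusterin gene, rose from 113 and 91.6 to 1010.0 and 567 FPKM (log2 fold change 2.88, limma adjusted p = 0.0222). Tcn2, the transcobalamin gene whose product carries vitamin B12 to megalin, fell from 802 and 764 to 244 and 255 FPKM (-1.65, SE 0.16, limma adjusted p = 0.0195). Apoe, named after its values were seen, was at 424 and 152 FPKM in WT against 892 and 1740.0 FPKM in ADPKD (limma adjusted p = 0.0756). The part of macrophages in the level of Apoe was not tested.

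Of 6 genes of vitamin D and B12 handling 0 passed the test by limma, 1 were higher and 0 lower at an unadjusted p under 0.05, and voom called 0 higher and 0 lower. Cyp27b1, which makes active vitamin D, was at 6.93 and 1.96 FPKM in WT against 9.38 and 16.1 FPKM in ADPKD (limma adjusted p = 0.143). The B12 trafficking gene Mmachc was at 10.1 and 8.12 FPKM in WT against 6.86 and 4.55 FPKM in ADPKD (limma adjusted p = 0.156).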
